A study of Mus musculus with 24 samples.

Results

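The genes described here are 10 genes of antigen presentation by MHC class II: H2-Aa, H2-Ab1, H2-Eb1, H2-DMa, H2-DMb1, H2-Oa, Cd74, Ciita, Ctss and Cd86. They were chosen by name, and a probe was taken where its accession belongs to one of them. This gave 11 probes, of 55681 probes on the array, because H2-Ab1 has 2. The RNA came from thymocytes of C57BL/6J mice aged 4 to 5 weeks, obtained by dispersing the thymus through a 40 μm mesh, so the cells were strained and not sorted. Each of 24 two-colour arrays held 1 thymocyte sample in Cy5 and the same Universal Mouse RNA (Stratagene) in Cy3, with no dye swap, and each of 8 groups had 3 arrays. Females and males were either not irradiated (control) or received X-rays at 0.075 Gy (low dose), γ-rays at 1.75 Gy (high dose), or the X-ray dose and, 6 h later, the γ-ray dose, named RAR in the labels. The methods count 3 individuals in each irradiated group. A p-value here measures the spread between those samples.

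MHC class II molecules are pairs of an α and a β chain that show peptides from the endocytic pathway to CD4 T cells. In the thymus they are carried by epithelial cells, dendritic cells, B cells and macrophages, and they direct the selection of CD4 thymocytes, which themselves carry little class II in the mouse. Newly made pairs are held by the invariant chain (Cd74), which proteases such as cathepsin S (Ctss) cut down. H2-DM then exchanges the remaining fragment for peptide, H2-O restrains H2-DM, and the coactivator CIITA (Ciita) switches on the class II genes, Cd74 and H2-DM. CD86 is not a presenting molecule but the costimulatory ligand that activated presenting cells show beside it.

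Of the 10 genes, 6 lie together in the MHC on chromosome 17 (GRCm38.p6). These are H2-Oa at chr17:34092379-34095234, H2-DMa at chr17:34119693-34139101, H2-DMb1 at chr17:34153191-34160229, H2-Ab1 at chr17:34263227-34269418, H2-Aa at chr17:34282744-34287823 and H2-Eb1 at chr17:34305867-34316674. Ciita (chr16:10480014-10531064) and Cd86 (chr16:36568956-36666158) lie on chromosome 16 and Ctss (chr3:95526786-95556405) on chromosome 3. Where in its gene a probe lies was not determined.

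Promoters are shown for the genes of the group on which the results turn. Class II promoters are known for an X box and, downstream of it, a Y box, which is an inverted CCAAT box read as ATTGG. The RefSeq promoter table (GRCm38.p6) held 6 of the 10 genes, and 5 are printed for the 120 bases before their start sites, 5′ to 3′ on the gene's own strand. H2-Aa, H2-Eb1, H2-DMb1 and H2-Oa are shown because they carry such a pair and yet their signals moved in different ways after irradiation, and Ctss because its change was the largest of the 10 in the RAR groups of both sexes. Capitals mark CNNGNNAC, followed after 17 to 30 bases by ATTGG.
H2-Aa, chr17:34287824-34287943, minus strand: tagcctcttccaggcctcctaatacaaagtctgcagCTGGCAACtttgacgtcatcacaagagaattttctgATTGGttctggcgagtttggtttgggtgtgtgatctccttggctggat
H2-Eb1, chr17:34305747-34305866, plus strand: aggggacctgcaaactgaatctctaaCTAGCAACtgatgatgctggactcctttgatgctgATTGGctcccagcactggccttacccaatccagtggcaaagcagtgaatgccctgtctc
H2-DMb1, chr17:34153071-34153190, plus strand: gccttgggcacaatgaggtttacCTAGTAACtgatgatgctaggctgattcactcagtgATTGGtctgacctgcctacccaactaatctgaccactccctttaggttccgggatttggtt
H2-Oa, chr17:34092259-34092378, plus strand: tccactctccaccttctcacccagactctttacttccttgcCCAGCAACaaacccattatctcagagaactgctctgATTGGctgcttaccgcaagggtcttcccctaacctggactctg
Ctss, chr3:95526666-95526785, plus strand: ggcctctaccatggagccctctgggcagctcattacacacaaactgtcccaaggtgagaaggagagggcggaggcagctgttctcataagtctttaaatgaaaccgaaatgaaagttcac

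In these 4 class II promoters, 27 or 28 bases lie between the marked stretches. Over the 250 bases before the start, ATTGG on either strand occurred in 33.8% of the 32851 promoters of the table, and CCNNGNNAC on either strand in 41.1%. CCNNGNNAC followed at this distance by ATTGG, read on the gene's strand, occurred in 0.326% of promoters. Of the 6 genes of the group held in the promoter table, H2-DMb1 and H2-Oa had it. The shorter CNNGNNAC, which lies within CCNNGNNAC and was chosen after the sequences were seen, gave the pair in 1.02% of promoters and in all 4 class II promoters shown. These 4 were shown because they carry it, so their count was fixed by that choice and cannot be weighed against the 1.02%. ATTGG was not found on either strand in those 250 bases of Ctss. H2-DMa has 2 start sites in the table, neither with the pair. H2-Ab1, Cd74, Ciita and Cd86 are not shown.

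All 11 probes were well above background in Cy5 on 24 of 24 arrays, so each gene was measured in every thymocyte sample. The reference channel was less even. H2-Aa was detected in Cy3 on 11 of 24 arrays, so its ratio often divides by a signal not told from background. The remaining genes were above background in Cy3 on 23 or 24 arrays. A ratio moves with both of its channels, and the Cy3 RNA is the same everywhere, so each gene is given below as log2(Cy5/Cy3) and, where that matters, as each channel alone, scaled to the 75th percentile of its array. Each channel is the processed signal, already dye-normalized by the array software, and not the raw intensity. A change was called at a Benjamini-Hochberg adjusted p under 0.05 and at least 1.5-fold, with limma over all 55681 probes.

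A few facts of the whole series touch these values. On the female RAR arrays 53.9%, 71.8% and 34.7% of spots were well above background in Cy5, against 49.3% to 62.8% on the other 21, and their ratios had the lowest correlation between replicates (r = 0.80 to 0.86). The reference channel itself, fitted in the same way, differed between RAR and control in 17.2% of probes in females and 2.32% in males. Scaled Cy3 alone shifted the median of all probes by 0.33 in females and 0.17 in males, and changes of Cy3 below are given without subtracting this. Scaled Cy5 alone shifted the median of all probes between RAR and control by 0.64 in females and 0.33 in males on the log2 scale, whereas the ratio shifted it by -0.04 and -0.02. The arrays lie on 3 slides. The female controls were all on 1 slide that held no female RAR or female high dose array, so those comparisons have no within-slide value in females.

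**Figure D1:**
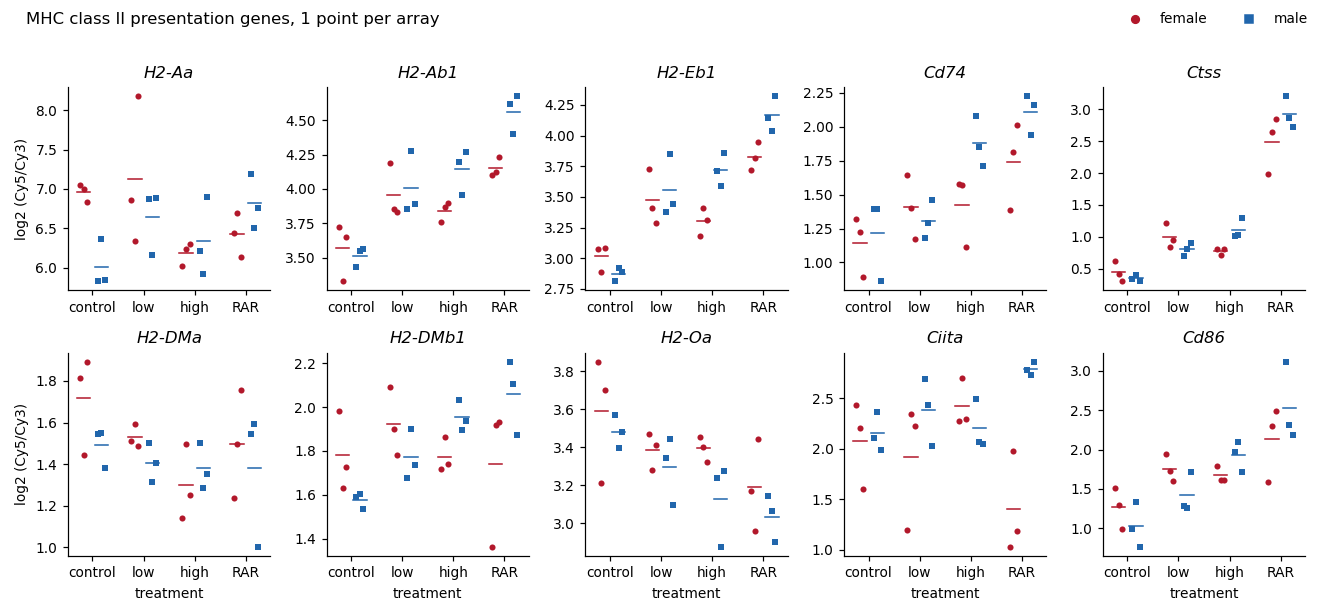
Log2(Cy5/Cy3) of the 10 genes on each of the 24 arrays, by treatment, with circles for females, squares for males and a bar at the mean of each 3. Ctss on the 6 RAR arrays lies between 1.99 and 3.20, above all 18 others, while H2-DMa and H2-Aa show no such separation.

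Ctss, the protease that trims the invariant chain, changed most. Its log2 ratio was 0.62, 0.43 and 0.32 in female controls and 1.99, 2.64 and 2.84 in female RAR. In males it was 0.34, 0.41 and 0.31 in controls and 3.20, 2.86 and 2.72 in RAR. No RAR array overlapped a control array, and 9.96% of all probes lay higher on all 6 RAR arrays than on all 6 controls. For 3 arrays against 3 within a sex, the share of all probes without overlap was not counted, here or below. The log2 change of Ctss was 2.03 ± 0.18 (SE, n = 3 per group) in females and 2.57 ± 0.18 in males, which is 4.09-fold and 5.94-fold (limma adjusted p = 1.43e-07 and 6.06e-09). With Cy5 alone the changes were 1.69 and 2.20, that is 1.04 and 1.88 above the shift of all probes, and both were called. The reference signal of Ctss was slightly lower with RAR, by 0.37 in females and 0.40 in males, which adds to the ratio.

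Single doses did not reach that level. The methods do not state the time from irradiation to collection of the thymus, so regimen and time cannot be told apart. With the low dose Ctss stood at 1.22, 0.84 and 0.95 in females and 0.71, 0.81 and 0.90 in males. With the high dose it stood at 0.82, 0.72 and 0.82 in females and 1.01, 1.03 and 1.29 in males. Each of these 12 arrays lay above all 6 controls and below all 6 RAR arrays. Of all probes, 4.59% lay higher on all 6 RAR arrays than on all 6 high dose arrays, and 3.99% than on all 6 low dose arrays. Against the high dose, RAR was higher by 1.71 in females and 1.81 in males, and against the low dose by 1.48 and 2.12, all called (adjusted p from 3.27e-07 to 4.78e-05). Of the 10 genes, Ctss was the one called in each of the 6 comparisons of RAR with another treatment. Of the comparisons of a single dose with control, it was called for the high dose in males (0.76 ± 0.18, adjusted p = 0.0054).

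The β chains H2-Ab1 and H2-Eb1 followed each other closely, with r = 0.98 over the 24 arrays of 8 groups, as a description. The log2 ratio of H2-Eb1 was 3.08, 2.89 and 3.08 in female controls and 3.72, 3.81 and 3.95 in female RAR. In males it was 2.81, 2.92 and 2.88 in controls and 4.15, 4.04 and 4.32 in RAR. Again no RAR array overlapped a control. The change was 0.81 ± 0.14 in females (1.76-fold, adjusted p = 0.000154) and 1.3 ± 0.14 in males (2.46-fold, adjusted p = 7.75e-07).

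For H2-Ab1 the ratio was 3.73, 3.33 and 3.65 in female controls and 4.10, 4.12 and 4.23 in female RAR. The change of 0.58 ± 0.14 (adjusted p = 0.0031) was 1.498-fold in females, just under the required 1.5-fold, so it was not called. In males the ratio went from 3.43, 3.55 and 3.56 to 4.61, 4.40 and 4.67, a change of 1.05 ± 0.14 (2.07-fold, adjusted p = 8.51e-06). The second probe of H2-Ab1 gave 0.58 in females and 0.97 in males.

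In females the thymocyte signal of the β chains, taken alone, gave another picture than the ratio. Scaled Cy5 of H2-Eb1 was 6.09, 5.62 and 5.70 in female controls and 5.64, 5.88 and 6.01 in female RAR, and the groups overlapped. The Cy5 change was 0.04 ± 0.14 (adjusted p = 0.798), with a 95% interval from -0.25 to 0.33. For H2-Ab1 the female Cy5 change was -0.35 ± 0.15 (adjusted p = 0.0526), opposite in sign to the ratio. The reference signal fell by 0.79 for H2-Eb1 (adjusted p = 0.00172) and by 0.95 for H2-Ab1 (adjusted p = 0.000753) between the same female groups.

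In males the thymocyte signal of H2-Eb1 did move. Scaled Cy5 was 5.54, 5.54 and 5.34 in controls and 6.24, 6.30 and 6.24 in RAR, with no overlap, a change of 0.79 ± 0.14 (adjusted p = 0.000158). H2-Ab1 had a Cy5 change of 0.34 ± 0.15 in males (adjusted p = 0.079), not called, with its reference signal lower by 0.74. The part of the reference signal in the ratios of both β chains was not tested.

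The α chain H2-Aa had the highest ratios of the 10 genes, between 5.83 and 8.18, over a reference signal that was mostly not above background. The ratio was 7.05, 7.0 and 6.84 in female controls and 6.44, 6.69 and 6.14 in female RAR. In males it was 5.83, 6.37 and 5.84 in controls and 7.18, 6.51 and 6.76 in RAR. So the groups did not overlap in either sex, but in opposite directions, -0.54 ± 0.36 in females (adjusted p = 0.315) and 0.80 ± 0.36 in males (adjusted p = 0.102), and neither was called. Even without overlap, an exact two-sided permutation test of 3 against 3 arrays cannot go below 0.1. Cy5 alone gave 0.19 in females (adjusted p = 0.316) and 0.59 in males (1.51-fold, adjusted p = 0.0076). The female value was also positive with normexp and loess (0.42) and with the slide as a block (0.39), so it has no settled direction, and the value in males was called with Cy5 alone.

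Cd74, the invariant chain that holds class II chains after synthesis, was higher by ratio in the RAR groups of both sexes. The ratio was 1.32, 1.22 and 0.90 in female controls and 1.39, 1.82 and 2.01 in female RAR. In males it was 1.39, 1.39 and 0.86 in controls and 2.22, 1.94 and 2.16 in RAR. The change was 0.59 ± 0.19 in females (1.51-fold, adjusted p = 0.0278) and 0.89 ± 0.19 in males (1.85-fold, adjusted p = 0.00134). The lowest female RAR array stood barely above the highest female control. In females the call was lost without control replicate 3, RAR replicate 2 or RAR replicate 3, and with the slide as a block (0.46, adjusted p = 0.354). Cy5 alone gave 0.19 in females (adjusted p = 0.383) and 0.56 in males (adjusted p = 0.0242), the latter just under 1.5-fold.

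**Figure D2:**
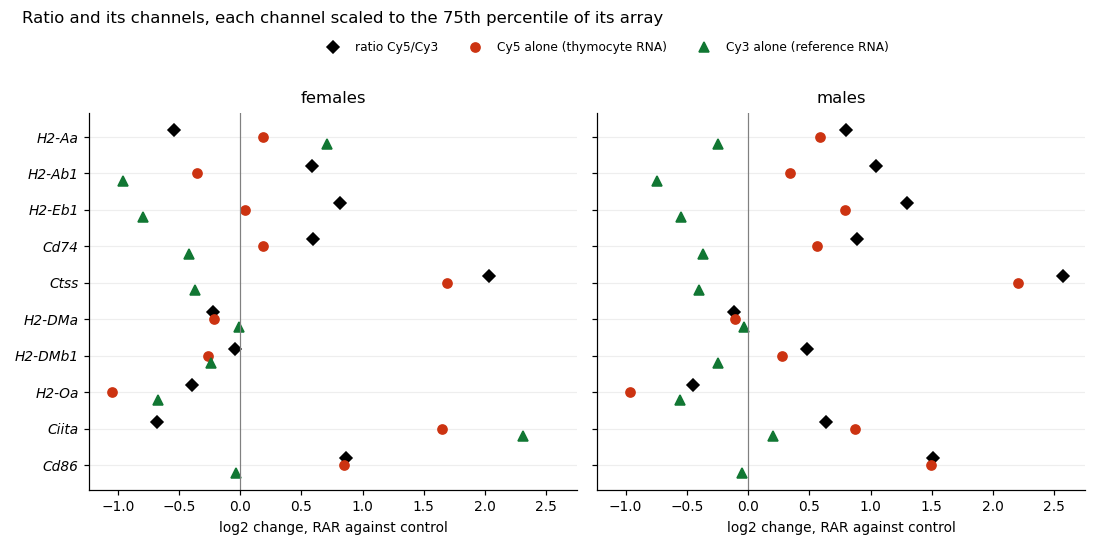
Log2 change between RAR and control for each gene in females and males, as the ratio (black diamonds), as Cy5 alone (red circles) and as Cy3 alone (green triangles), each channel scaled to the 75th percentile of its array. For Ctss and Cd86 ratio and Cy5 lie close together, whereas in females H2-Eb1 has a ratio of 0.81 with Cy5 at 0.04 and Cy3 at -0.79.

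H2-DMa and H2-DMb1 encode the chains of H2-DM, the peptide editor, and neither was called in any of the 12 comparisons. The ratio of H2-DMa ranged from 1.38 to 1.89 in the 6 controls (median 1.55) and from 1.00 to 1.76 in the 6 RAR arrays (median 1.52). Its change was -0.22 ± 0.16 in females and -0.11 ± 0.16 in males, and its reference signal moved by -0.01 and -0.03. Control and RAR overlapped in both sexes.

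H2-DMb1 ranged from 1.54 to 1.98 in controls (median 1.62) and from 1.36 to 2.21 in RAR (median 1.93). In females the change was -0.04 ± 0.14 (adjusted p = 0.888). In males it was 0.48 ± 0.14 (adjusted p = 0.0127), without overlap of the groups but only 1.40-fold.

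H2-Oa encodes the α chain of H2-O, which restrains H2-DM, and was the member called lower by Cy5 alone in the RAR groups of both sexes. Its ratio was 3.85, 3.21 and 3.70 in female controls and 3.17, 2.96 and 3.45 in female RAR. In males it was 3.57, 3.40 and 3.48 in controls and 3.14, 3.06 and 2.90 in RAR. The changes of -0.40 ± 0.16 (adjusted p = 0.0751) and -0.45 ± 0.16 (adjusted p = 0.039) were under 1.5-fold and not called. In Cy5 alone the separation was wider. Scaled Cy5 was 2.65, 2.22 and 2.54 in female controls and 1.51, 1.26 and 1.48 in female RAR, and 2.17, 2.32 and 2.17 in male controls and 1.37, 1.34 and 1.07 in male RAR. The Cy5 change was -1.05 ± 0.14 in females (adjusted p = 1.13e-05) and -0.96 ± 0.14 in males (adjusted p = 2.51e-05), both called and both further below the shift of all probes, by 1.69 and 1.29. Of all probes, Cy5 alone called 43.2% in females, made up of 29.9% higher and 13.3% lower. In males it called 29.2%, made up of 15.5% higher and 13.7% lower.

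The high dose alone had a similar sign, with a Cy5 change of -0.77 in females (adjusted p = 0.00065) and -0.74 in males (adjusted p = 0.000934). The reference signal of H2-Oa was lower together with its thymocyte signal, by 0.67 with RAR in females and 0.55 in males, so its ratio moved less than its Cy5. H2-Ob, the β chain of H2-O and named here after its values were seen, had a log2 ratio change of -1.36 in females and -1.39 in males with RAR, called in both.

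Ciita, the coactivator of class II genes, changed with opposite signs by ratio and by Cy5 alone in female RAR. Its ratio was 2.43, 2.20 and 1.60 in female controls and 1.03, 1.97 and 1.19 in female RAR, and 2.11, 2.36 and 1.98 in male controls and 2.78, 2.73 and 2.86 in male RAR. Against control the change was -0.68 ± 0.30 in females (adjusted p = 0.104) and 0.64 ± 0.30 in males (adjusted p = 0.118), not called in either sex. Against the high dose the female RAR ratio was lower by 1.02 ± 0.30 (adjusted p = 0.0322), and male RAR exceeded female RAR by 1.39 ± 0.30 (adjusted p = 0.0452). The reference signal of Ciita differed on the female RAR arrays.

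Scaled Cy3 of Ciita was -0.86, -1.39 and 0.68 on the 3 female RAR arrays and between -3.79 and -1.34 on the other 21. Scaled Cy5 was also higher there, 0.21, 0.62 and 1.86 against -0.31, -1.15 and -0.79 in female controls. With Cy5 alone, female RAR was therefore above control by 1.65 ± 0.37 (adjusted p = 0.00158) and above the high dose by 1.74 (adjusted p = 0.00436; 20.8% of all probes called), opposite in sign to the ratio. With normexp background correction and loess the change between female RAR and the high dose was 0.12 (adjusted p = 0.749). No direction of Ciita in female RAR held over these scalings. In males the change was positive in each, from 0.51 with normexp and loess to 0.93 with both channels quantile-normalized, and passed the threshold with the latter.

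**Figure D3:**
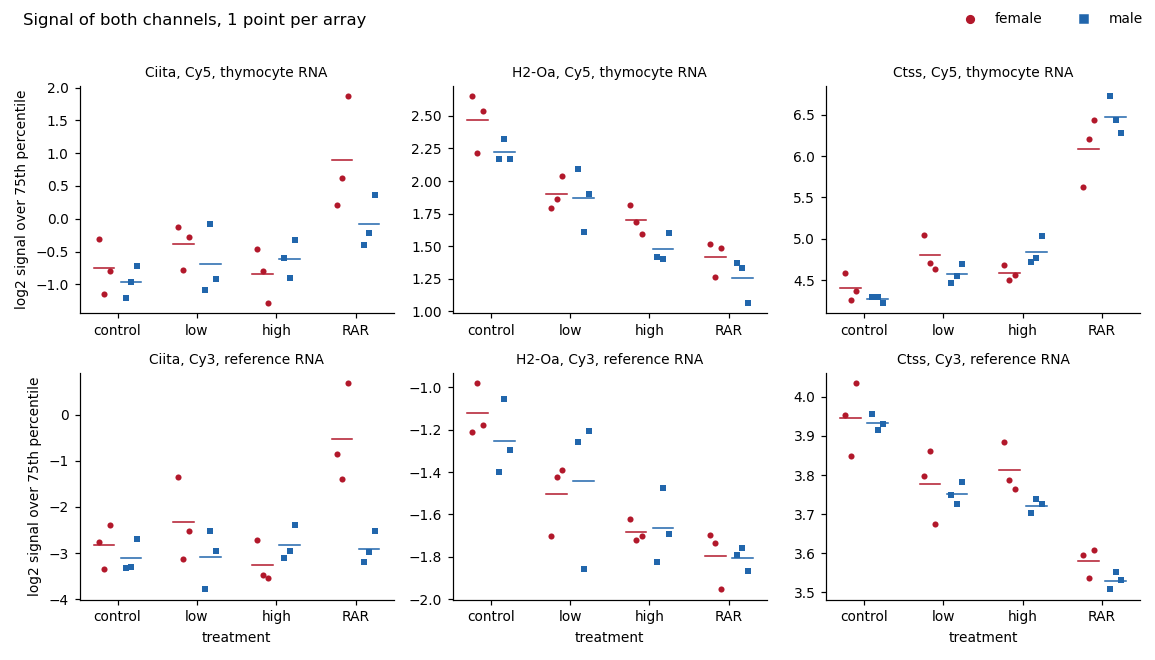
Log2 signal of Ciita, H2-Oa and Ctss on each array, over the 75th percentile of that array, with Cy5 (thymocyte RNA) above and Cy3 (reference RNA) below, circles for females, squares for males and bars at the means. The Cy3 signal of Ciita is above that of the other 21 arrays on 2 of the 3 female RAR arrays, the Cy5 signal of H2-Oa is lower on all 6 RAR arrays than on all 6 controls, and Ctss rises in Cy5. The share of all probes separated in Cy5 as H2-Oa is was not counted.

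Cd86, the costimulatory ligand, rose on both scales. Its reference signal changed by -0.03 in females and -0.05 in males, where the median of all probes in Cy3 changed by 0.33 and 0.17. The ratio was 1.51, 1.3 and 0.99 in female controls and 1.59, 2.30 and 2.49 in female RAR, and 0.99, 1.33 and 0.77 in male controls and 3.12, 2.31 and 2.18 in male RAR. The groups did not overlap, although the lowest female RAR array lay close to the highest female control. The change was 0.86 ± 0.25 in females (1.82-fold, adjusted p = 0.0136) and 1.51 ± 0.25 in males (2.84-fold, adjusted p = 0.000108). Cy5 alone gave 0.85 and 1.49, both called, which is 0.21 and 1.16 above the shift of all probes. The female call was lost without control replicate 3 (0.73, adjusted p = 0.0707), RAR replicate 2 (0.77, adjusted p = 0.0559) or RAR replicate 3 (0.68, adjusted p = 0.0749).

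By ratio, RAR against control thus called 4 of the 10 genes higher in females (H2-Eb1, Cd74, Ctss and Cd86) and 5 in males (these and H2-Ab1), and none lower. Over all probes 20.5% were called in females, 9.64% higher, and 24.6% in males, 11.2% higher. A filter on dim probes, which all 10 genes passed, kept 32752 probes. Of these, 34.9% were called in females and 40.3% in males, with 4 and 5 of the 10 genes. The median change of the 10 genes was 0.27 in females and 0.85 in males, against -0.04 and -0.02 for all probes. With Cy5 alone that median was 0.12 in females, below the 0.64 of all probes, and 0.58 in males, above their 0.33. With Cy5 alone 3 genes were called higher and 1 lower in females (Ctss, Cd86 and Ciita, and H2-Oa) and 4 higher and 1 lower in males (H2-Aa, H2-Eb1, Ctss and Cd86, and H2-Oa). Of all probes, Cy5 alone called 29.9% higher and 13.3% lower in females, so the female counts are near those shares. In males it called 15.5% higher and 13.7% lower. Ctss and Cd86 were thus called higher in both sexes by either measure, and H2-Oa lower in both sexes by Cy5. Without female RAR replicate 3, the array with the lowest share of spots above background, 2 of the 10 genes were called in females (H2-Eb1 and Ctss), with 20.2% of all probes. Without replicate 2, the one with the highest share, 4 were (H2-Ab1, H2-Eb1 and Ctss, and Ciita lower), with 19.1%. On slide 2, which held 1 male RAR and 1 male control array, the differences were 2.86 for Ctss, 2.13 for Cd86, 1.33 for H2-Eb1, 1.18 for H2-Ab1 and 0.83 for Cd74. With the slide as a block, 3 genes were called in females (H2-Eb1, Ctss and Cd86), where that fit called 12.9% of all probes, and 6 in males (the 5 and H2-Aa), where it called 18.7%.

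The high dose alone called 5 genes higher in males: H2-Ab1 (0.63), H2-Eb1 (0.85), Cd74 (0.66), Ctss (0.76) and Cd86 (0.90), where 10.6% of all probes were called, 5.2% higher. Of the 32752 probes kept by the filter on dim probes, 18.2% were called there. In females the high dose called 0 of the 10, against 7.89% of all probes. At an unadjusted limma p under 0.05 there were 2 (H2-Aa at -0.78 and H2-DMa at -0.42), and 13591 of all 55681 probes. With Cy5 alone 1 gene was called in females (H2-Oa, lower, with 12.9% of all probes called) and 3 in males (H2-Eb1, Cd86 and H2-Oa, the last lower, with 12.2%). The low dose called H2-Eb1 in males (0.68 ± 0.14, adjusted p = 0.00291, with 6.65% of all probes, 3.21% higher) and 0 genes in females (8.77% of all probes). In females H2-Ab1, H2-Eb1 and Ctss had an unadjusted limma p under 0.05 at 0.39, 0.46 and 0.55, as did 13732 of all 55681 probes. H2-Ab1, H2-Eb1 and Ctss lay higher on all 6 low dose arrays than on all 6 controls, as did 4.77% of all probes. For the high dose these 3 and Cd86 did so, as did 5.42%, and for RAR the same 4, as did 9.96%. These comparisons share the control arrays, and the separations are of ratios. With the low dose, Cy5 alone of H2-Ab1 changed by -0.01 in females and 0.14 in males, and its reference signal by -0.41 and -0.38. Cy5 of H2-Eb1 changed by 0.25 and 0.50 and that of Ctss by 0.39 and 0.30, none called. The median of all probes in Cy5 moved by 0.09 and 0.14. With the high dose in females, Cy5 of H2-Ab1 and H2-Eb1 changed by -0.25 and -0.07.

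RAR was also compared with each single dose. Against the high dose it called Ctss in both sexes and Ciita lower in females, among 7.3% of all probes in females and 5.89% in males. Against the low dose it called Ctss in females (4.14% of all probes) and Ctss, Cd86 (1.12), Cd74 (0.80) and H2-Eb1 (0.61) in males (9.78%, with 4.98% higher). In that male comparison 17.7% of the probes kept by the filter on dim probes were called. With Cy5 alone, which called 11.3% of all probes in that male comparison, H2-Eb1 and Cd74 were not called there (0.29 and 0.56), and H2-Oa was (-0.61, adjusted p = 0.00463).

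**Figure D4:**
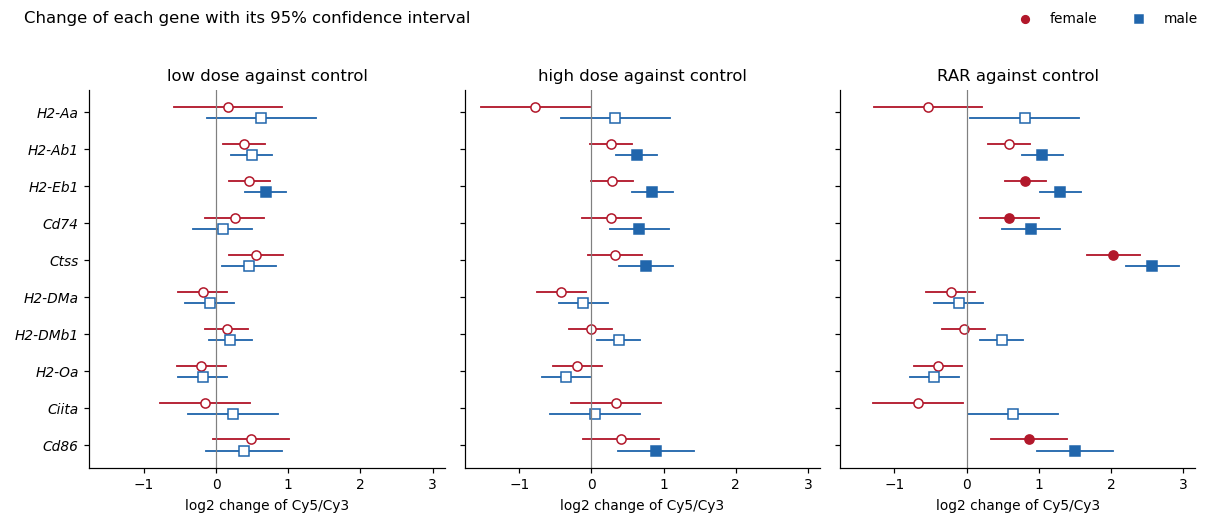
Log2 change of the ratio against control for each gene after the low dose, the high dose and RAR, with 95% confidence intervals from limma, circles for females and squares for males, filled where called. RAR moves Ctss by 2.03 and 2.57, while H2-Aa, H2-DMa, H2-DMb1, H2-Oa and Ciita have no filled symbol in any panel.

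Whether the sexes differed was tested directly. In controls 0 of the 10 genes differed between males and females (0.21% of all probes), and in RAR Ciita did by ratio (0.438% of all probes). That call was lost with normexp and loess (0.33, adjusted p = 0.512) and with the slide as a block (adjusted p = 0.0643), and Cy5 alone gave -0.99 (adjusted p = 0.145). The reference signal of Ciita differed between the same male and female arrays by -2.38 (adjusted p = 0.0395). Ctss was higher in male than in female RAR by 0.43 (adjusted p = 0.337) and Cd86 by 0.41 (adjusted p = 0.537), neither called. The interaction of sex and treatment was past the threshold for 0 of the 10 genes by limma's F-test (adjusted p from 0.691 to 0.969), against 0.00359% of all probes. Before adjustment, limma gave 0.00714 for Ciita, 0.0368 for H2-Eb1 and 0.0466 for H2-DMb1, the genes whose unadjusted p was under 0.05. How many of all probes had such an unadjusted p was not counted. The larger changes in males are therefore values side by side and not a difference shown between the sexes.

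The rest of the pathway was described with lists of other genes. Of 20 further class II pathway genes on the array, RAR called 7 higher and 5 lower in females and 11 higher and 5 lower in males. Of all probes, it called 20.5% in females, 9.64% higher, and 24.6% in males, 11.2% higher. Legumain (Lgmn), an endosomal protease that starts the breakdown of antigens and the invariant chain, changed by 2.87 in females and 3.73 in males. Cathepsin B (Ctsb) changed by 1.73 and 2.40. Marchf1, the ligase that removes class II and CD86 from the surface, changed by 1.81 and 1.84, and the costimulatory molecules Cd40 by 1.02 and 1.90 and Cd80 by 1.46 and 1.62. Rfxap, a subunit of the complex that binds the X box, was lower by ratio, at -1.54 and -1.73. Each of these 6 was called in both sexes, and each kept its sign with Cy5 alone and with normexp and loess, where Cd40 in females (0.56) was not called. The median change of the 20 was 0.19 in females and 0.81 in males. With Cy5 alone it was 0.38 and 0.70, against 0.64 and 0.33 for all probes. A positive sign with Cy5 alone is thus also that of the median probe. Lgmn was the one of the 20 called in all of the 6 comparisons of a treatment with control.

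Of 13 genes of the class I pathway, RAR called 6 higher and 1 lower in females and 8 higher and 0 lower in males, against 20.5% and 24.6% of all probes called. The lower one was Erap1 (-0.81), which trims peptides and is named after its value was seen. Nlrc5, the coactivator of class I genes as Ciita is of class II, changed by 1.78 in females and 1.97 in males. The class I heavy chains H2-K1 (1.39 and 1.72) and H2-D1 (1.3 and 1.53) are near-identical in sequence, so their probes may share signal. B2m, their light chain, changed by 1.31 and 1.46, Tapbp, which loads peptide, by 1.25 and 1.5, and Psmb10, of the immunoproteasome, by 1.00 and 0.94. All 6 were called by ratio in both sexes and positive with Cy5 alone, where Psmb10 in females (0.58) was not called. The median of all probes was itself positive with Cy5 alone, at 0.64 in females and 0.33 in males. Psmb10 in females lay under it. The median change of the 13 was 0.50 in females and 0.78 in males. With Cy5 alone it was 0.41 in females and 0.59 in males.

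Of 13 inducers and regulators of Ciita, RAR called 2 higher in females and 3 in males, and 0 lower in either, and with normexp and loess 4 and 6 higher. Of all probes, RAR called 20.5% in females, 9.64% higher, and 24.6% in males, 11.2% higher. With normexp and loess 12.1% and 14.9% of all probes were called in either direction. Irf1, which interferon γ induces and which acts on Ciita, changed by 1.38 and 1.67. Jak2, a kinase of interferon γ signalling, changed by 0.45 in females, not called, and by 0.70 in males, called. Irf4, a factor of B cell and dendritic cell development, stood at 0.49 and 0.26, not called. Ifngr1, a chain of the receptor for interferon γ, stood at -0.26 and -0.24, and Socs1, which damps the signal, at 0.19 and 0.41, none of them called. Spi1 was called in both sexes, but since only 5 of its 24 Cy5 signals cleared background, no fold is given. The median change of the 13 was 0.35 in females and 0.49 in males. With Cy5 alone it was 0.27 and 0.36, against 0.64 and 0.33 for all probes.

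**Figure D5:**
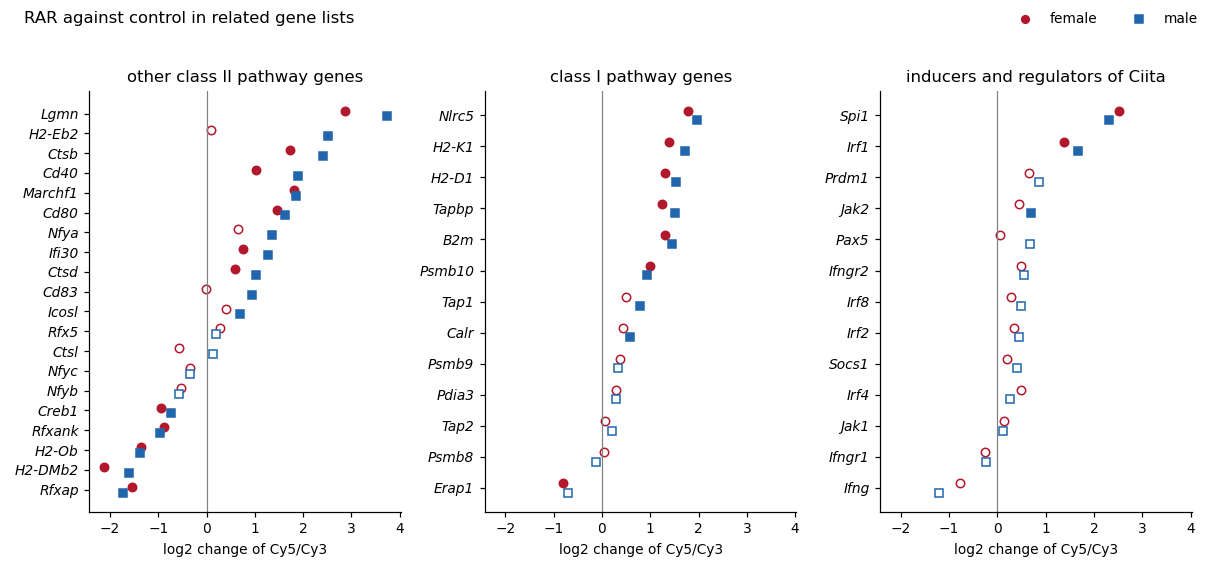
Log2 change of the ratio between RAR and control for further class II pathway genes, class I pathway genes, and inducers and regulators of Ciita, circles for females and squares for males, filled where called. Lgmn lies farthest to the right in the class II panel, and 7 of the 20 genes there were called higher in females and 11 in males. Of all probes, 9.64% and 11.2% were called higher.

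Because the cells were strained and not sorted, markers of other cells are given beside these results. In such bulk RNA, fewer cells of a type and less RNA per cell cannot be told apart. Over all probes, RAR against control called 20.5% in females and 24.6% in males by ratio. Of 12 macrophage and monocyte markers RAR called 6 higher and 2 lower in females and 7 higher and 0 lower in males, and their summed Cy5, in units of each array's 75th percentile, was 20.9 to 32.6 in controls, 25.4 to 29.5 with the low dose, 26.0 to 33.9 with the high dose and 42.7 to 103 with RAR. Of 12 dendritic cell markers it called 5 higher and 1 lower in females and 6 higher in males, with a sum of 351 to 438 in controls and 722 to 943 in RAR. One gene, Siglech, made up 91.0% of that sum in controls and 91.5% in RAR. Itgax, which dendritic cells share with some macrophages, went from between 1.25 and 1.75 to between 4.87 and 9.14, and Xcr1 was well above background on 0 arrays.

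Of 10 B cell markers, RAR called 1 higher (Cd22) and 3 lower in females and 1 higher and 4 lower in males, with a sum of 18.9 to 25.9 in controls and 17.1 to 20.7 in RAR, and Cd79a was well above background on 4 arrays. Of 12 markers of thymic epithelium it called 1 higher and 4 lower in females and 2 higher and 3 lower in males, with a sum of 34.5 to 54.9 in controls and 24.8 to 33.9 in RAR, and Foxn1, Psmb11 and Aire were above background on 6, 8 and 9 arrays. Of 11 double-positive thymocyte markers 2 were called higher and 3 lower in females and 4 higher and 1 lower in males by ratio, but with Cy5 alone 0 higher and 7 lower in females and 0 higher and 8 lower in males. Their summed Cy5 was 729 to 879 in controls and 379 to 557 in RAR. Of 9 T cell markers 0 were called in females and 2 higher in males by ratio, and 6 and 7 lower with Cy5 alone, with a sum of 1298 to 1536 in controls and 799.5 to 1025 in RAR. Over all probes, 20.5% were called in females and 24.6% in males by ratio, and Cy5 alone called 13.3% and 13.7% lower. The median log2 ratio change of the list was 0.70 in females and 1.51 in males for macrophages and monocytes, -0.14 and 1.03 for dendritic cells, -0.23 and -0.37 for B cells and -0.56 and -0.54 for epithelium. By mean log2 ratio over the list, macrophage and monocyte markers lay between 0.39 and 1.06 in controls and between 1.37 and 2.31 in RAR, without overlap, and dendritic cell markers between 1.53 and 2.09 and between 1.89 and 2.62, with overlap. The part of any of these cells in the changes of the 10 genes was not tested.

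Among themselves the 10 genes did not vary as one. Over the 24 arrays of 8 groups, which share the treatments, H2-Eb1 correlated with Ctss at r = 0.85, with Cd86 at 0.78 and with Cd74 at 0.78, with H2-DMb1 at 0.62 and with H2-Oa at -0.59. With H2-Aa it correlated at 0.12, with Ciita at 0.07 and with H2-DMa at -0.25. The 6 genes outside the group whose ratios were most like the mean of H2-Aa, H2-Ab1, H2-Eb1 and Cd74 over the 24 arrays, of 13217 genes above background on at least 18, were Rab43 (r = 0.94), Ephx1 (0.91), Gimap4 (0.91), Phldb1 (0.90), Fblim1 (0.90) and Myo1g (0.90). Within groups, after the group means were removed, the same correlations lay between 0.32 and 0.60. These are descriptions without a test.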

How the data were processed

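The authors deposited Feature Extraction 11.5.1.1 files with the processed intensity of each channel, background-subtracted and dye-normalized by that software, and a table of log2 Cy5/Cy3 values, of which 100% matched the processed signals within 0.01 on every array. Outlier spots were left out and the spots of a probe averaged on the log2 scale. Genes were named by accession through RefSeq (GRCm38.p6), for 28026 of 55681 probes. The probe with the highest mean Cy5 stood for a gene. All 24 arrays were fitted as 8 group means with limma 3.58.1 in R 4.3.3, and p-values adjusted over all probes. The exact two-sided permutation test of 3 against 3 arrays cannot go below 0.1. The tests were tried on simulated data first. The number of arrays limits the precision. Alternatives were normexp (offset 50) with loess, Aquantile, both channels quantile-normalized (added after the values were seen), Cy5 alone, the deposited table, a filter on dim probes, slide and replicate blocks, and left-out values or arrays. The genes and lists were chosen with earlier results of these data known. Of each list up to 6 genes were named, those called in the most comparisons, ties by the largest change, and 1 listed gene is not reported here. Figures were drawn with matplotlib 3.10.9 in Python 3.11.15.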

Additional observations from a re-analysis of the deposited data

Results flagged for a closer look

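H2-Aa had changes of opposite sign in the sexes between RAR and control, with every female RAR array below every female control and every male RAR array above every male control. The share of all probes separated in that way was not counted. The log2 change of the H2-Aa ratio was -0.54 in females and 0.80 in males, a male minus female difference of 1.34. The interaction of sex and treatment over all groups did not pass (limma, unadjusted p = 0.0633, adjusted p = 0.770). Its reference signal was above background on 2 of the 6 control arrays and 2 of the 6 RAR arrays.

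Ciita also differed in sign, at -0.68 in females and 0.64 in males, a difference of 1.32. The interaction had an unadjusted p of 0.00714 and an adjusted p of 0.691. With Cy5 alone both sexes were positive, at 1.65 and 0.88.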

How the results depend on the processing

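Aquantile and the deposited table keep each ratio by construction, as does the mean over probes for all members but H2-Ab1, and they are left out of this tally. The higher fold threshold, the filter on dim probes and the replicate block stayed in it. These leave each log2 change as it was or nearly so, and so could hardly turn a sign. The tally covers RAR against control for all members in both sexes and, elsewhere, only values called in the main fit. Of 315 values of a gene in a comparison under another setting, 245 kept their direction and side of the threshold, 39 lost the threshold, 16 gained it and 15 turned sign. Asking for a log2 change over 1.5 left 0 genes for the high dose in males (2.25% of all probes) and 0 for the low dose in males (1.25%). It left 1 for RAR against control in females (4.81%) and 2 in males (7.15%). For RAR against the high dose in females it left 1 (1.4%). Against the low dose RAR kept 0 in females (0.849%) and 1 in males (1.59%). Between the sexes in RAR 0 remained (0.339%). Normexp with loess called 1 gene for RAR against the high dose in females (4.53%) and 0 between the sexes in RAR. Cy5 alone called 1 and 3 genes for the high dose in females and males (12.9% and 12.2% of all probes). It called 0 for the low dose in males (6.34%) and 2 for RAR against the low dose in females (13.4%). Between the sexes in RAR it called 0 (3.13%). Leaving out values over 1 log2 unit from the others gave 1 for the high dose in females (19.5% of all probes called), 2 for RAR against the low dose in females (14%), 1 between the sexes in controls (7.62%) and 2 for the interaction (17.4%). Leaving out the farthest value of each group, which narrows the spread by construction, gave 2 for the high dose in females (26.4%), 2 for RAR against the high dose in males (26.1%), 4 for RAR against the low dose in females (21.5%), 1 between the sexes in controls (16.9%) and 7 for the interaction (60.5%). Quantile normalization of both channels, added after the values were seen, called 8 genes for RAR against control in males (24.3%). The slide as a block called 3 for the high dose in males (7.01%), 1 for RAR against the high dose in females (6.11%), 2 for RAR against the low dose in males (5.91%) and 0 between the sexes in RAR.

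Values that turned sign were, for RAR against control in females, H2-Aa (0.42 with normexp and loess, 0.19 with Cy5 alone, 1.14 with quantile normalization, 0.39 with the slide block), H2-Ab1 (-0.35 with Cy5 alone), H2-DMb1 (0.25 without the farthest values, 0.12 with quantile normalization) and Ciita (0.094 with normexp and loess, 1.65 with Cy5 alone). In males H2-DMa turned to 0.015 with normexp and loess, 0.021 without the farthest values and 0.060 with quantile normalization. Ciita turned to 0.12 and 1.74 for RAR against the high dose in females with normexp and loess and with Cy5 alone, and to -0.99 between the sexes in RAR with Cy5 alone. Without 1 array at a time, H2-DMb1 ran from -0.14 to 0.15 in females and H2-DMa from -0.22 to 0.076 in males. The cause was not tested.

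Without 1 array at a time the number of called genes ran from 3 to 5 for the high dose in males, from 0 to 1 for the low dose in either sex, from 2 to 5 for RAR against control in females (5 throughout in males), from 1 to 2 for RAR against the high dose in females, from 3 to 5 for RAR against the low dose in males and from 0 to 1 between the sexes in RAR. For RAR against control in females those fits called 18.1% to 20.5% of all probes. For the other comparisons that share is not given here. Samples with the same replicate number did not deviate together (correlations from -0.09 to 0.10), so the numbers do not pair them, and the replicate block left the counts at 4 in females and 5 in males for RAR against control and changed no other count.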
